A study of Mus musculus with 10 samples.

Results

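The genes described here encode amino acid transporters and their partner subunits in group 2 innate lymphoid cells (ILC2s), and the measurements are of open chromatin near these genes. Their members were the regions of the deposited count table (mm10) whose nearest transcription start site (TSS) in the curated RefSeq annotation belonged to a gene with a symbol starting *Slc1a*, *Slc3a*, *Slc6a*, *Slc7a*, *Slc36a*, *Slc38a*, or *Slc43a*. This rule used positions and symbols, and no measured value. The symbol families gave 167 of 50039 regions, at 51 of 16813 genes. The annotation held 67 such symbols, and 16 of them had no region, among them *Slc1a2*, *Slc1a6*, *Slc6a2*, *Slc6a7*, *Slc6a11*, *Slc6a13*, *Slc6a17*, *Slc6a19os*, *Slc6a20b*, *Slc7a9*, *Slc7a12*, *Slc7a13*, *Slc36a2*, *Slc38a3*, and *Slc38a5*. The symbol rule also takes in genes that are not amino acid transporters, such as the serotonin carrier *Slc6a4*, the creatine carrier *Slc6a8*, the nucleobase carrier *Slc43a3*, and the opposite-strand genes *Slc36a1os*, *Slc36a3os*, and *Slc7a6os*, which together had 9 regions.

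Amino acids do not cross the plasma membrane freely, and a lymphocyte that starts to grow or to make cytokines raises its uptake through these carriers. The SLC7 light chains reach the membrane as pairs with a heavy chain of the SLC3 family, so that SLC7A5 with SLC3A2 (CD98) imports leucine and other large neutral amino acids in exchange for glutamine. SLC1A5 and the SLC38 carriers bring in glutamine and small neutral amino acids, SLC7A1 brings in arginine and lysine, SLC7A11 exchanges glutamate for cystine, and SLC38A9 and the SLC36 carriers sit at lysosomes, where SLC38A9 passes the arginine signal to mTORC1. ILC2s are known for their use of arginine through arginase-1 and for metabolic programs that differ with the tissue they live in.

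The study asked how the tissue shapes mouse ILC2s, and its ATAC-seq, which counts insertions of a transposase into open chromatin, covered 5 tissues, namely lung, pancreas, bone marrow (BM), and the small (SI) and large intestine (LI). Each tissue had 2 libraries of 50000 sorted ILC2s from wild-type C57BL/6 male mice that were 6 weeks old. Cells of 16 mice were pooled for each of BM, pancreas, and lung, whereas both intestinal pools drew on 10 mice. BM cells were sorted as Lin-ST2+CD25+, LI, lung, and pancreas cells as Lin-CD45+CD127+ST2+CD25+, and SI cells as Lin-CD45+CD127+KLRG1+ with a reduced Thy1 level, on another sorter for BM than for the other tissues. BM cells were flushed from bone, whereas lung, pancreas, and intestine were digested with collagenase under conditions that differed between them. Isolation, gate, sorter, and pool size changed together with the tissue and cannot be told apart from it.

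The libraries held between 10282987 and 32797872 counts, of which the member regions took 0.177% to 0.268%. The median member region had 60 counts in the shallowest library (pancreas 2) and 204 in the deepest (lung 2), so that every member region was tested. All 12 ILC2 marker genes had regions, with summed values between 1871 and 3116 CPM (counts scaled to the TMM-adjusted library size) in the 10 libraries. Both SI libraries (1871 and 2328 CPM) were the lowest, against 2361 to 3116 CPM in the other 8, and 56 of the 154 marker regions were lower in SI (10.2% of all regions were). The ILC2 sum held *Il1rl1* (ST2), a gate marker in all tissues but SI, at 86.4 and 107 CPM in SI against 225 to 524 elsewhere. *Thy1*, *Il7r*, and *Areg* were also below the mean of the other tissues in SI (adjusted p = 5.7e-04, 0.00613, and 0.00766). In the same contrast *Gata3*, *Rora*, *Id2*, and *Il13* did not pass (adjusted p of 0.130 to 0.822). Of the marker lists of other cells, 3 erythroid genes (*Klf1*, *Epor*, and *Hbb-bt*) summed to 75.7 and 45.9 CPM in the 2 BM libraries against 28.2 to 43.7 CPM in the other 8. The B cell list stood out in SI, where its 2 of 6 genes with regions summed to 60.1 and 42.3 CPM against 16.9 to 32.4 CPM elsewhere, while *Cd79a*, *Ms4a1*, and *Pax5* had no region. The replicates of a tissue differed far beyond counting noise, with a chi-square of 12.8 to 56 per degree of freedom, and no library repeated another. The study calls the libraries of a tissue biological duplicates, but how the mice were divided between them is not given, so the p-values measure only the spread between these libraries, which may be technical in part.

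The sequences below are the central 300 bases (mm10, plus strand) of 3 regions on which the results turn. They are the region near *Slc6a18* that was high in pancreas (chr13:73682268-73682567), a BM-high region in *Slc7a5* (chr8:121899260-121899559), and a BM-high region in *Slc7a1* (chr5:148389001-148389300). Capitals mark the letters AGATAA, the core of the sites bound by GATA factors, or AGGTCA, the core site of ROR and other nuclear receptors, on either strand.
Slc6a18, 4.39 kb upstream: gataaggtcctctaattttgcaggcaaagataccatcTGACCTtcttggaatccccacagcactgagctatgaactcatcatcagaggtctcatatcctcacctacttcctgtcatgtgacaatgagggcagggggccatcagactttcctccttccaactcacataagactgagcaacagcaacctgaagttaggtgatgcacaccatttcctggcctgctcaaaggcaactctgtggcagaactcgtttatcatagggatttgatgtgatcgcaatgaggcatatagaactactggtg
Slc7a5, 8.28 kb downstream: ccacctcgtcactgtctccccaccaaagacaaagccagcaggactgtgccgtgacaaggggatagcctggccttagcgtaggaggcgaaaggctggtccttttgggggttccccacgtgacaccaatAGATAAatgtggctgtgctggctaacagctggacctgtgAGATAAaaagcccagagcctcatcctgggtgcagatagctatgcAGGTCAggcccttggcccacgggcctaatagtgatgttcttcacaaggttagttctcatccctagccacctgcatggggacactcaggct
Slc7a1, 3.67 kb downstream: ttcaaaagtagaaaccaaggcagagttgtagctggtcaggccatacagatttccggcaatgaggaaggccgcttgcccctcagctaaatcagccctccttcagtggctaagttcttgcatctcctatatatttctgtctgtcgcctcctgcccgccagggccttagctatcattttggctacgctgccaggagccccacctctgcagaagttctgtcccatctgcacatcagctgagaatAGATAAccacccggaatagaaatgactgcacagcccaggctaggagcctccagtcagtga
The *Slc7a5* window held 2 GATA matches and 1 ROR match, the *Slc7a1* window held 1 GATA match, and the *Slc6a18* window held 1 ROR match. A match is a description of the letters and not of a bound site.

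For most member regions no difference among tissues passed the test against the spread between replicates. Of the 167 member regions, 57 (34.1%) differed among the 5 tissues at an adjusted p below 0.05 (edgeR's quasi-likelihood test over all regions), against 44.2% of all 49981 regions tested. The median range between the highest and the lowest tissue mean was 0.84 on the log2 CPM scale for the members and 0.92 for all regions. Promoters, meaning regions centred at most 1000 bp before or 100 bp after a TSS, varied least. Of the 23 member promoters 3 differed (13.0%), against 31.3% of all promoter regions, and these were the promoters of *Slc36a4*, *Slc36a3os*, and *Slc7a7*. The count of promoters was 5 without SI 2. Of the 144 other member regions 54 differed (37.5%), against 47.1% of all non-promoter regions. Inside genes it was 41 of 93 (44.1%), against 46.6% of all such regions, and between genes 13 of 51 (25.5%), against 48.0%. The called regions lay at 31 of the 51 genes, a count that was not set against that of all genes.

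**Figure D1:**
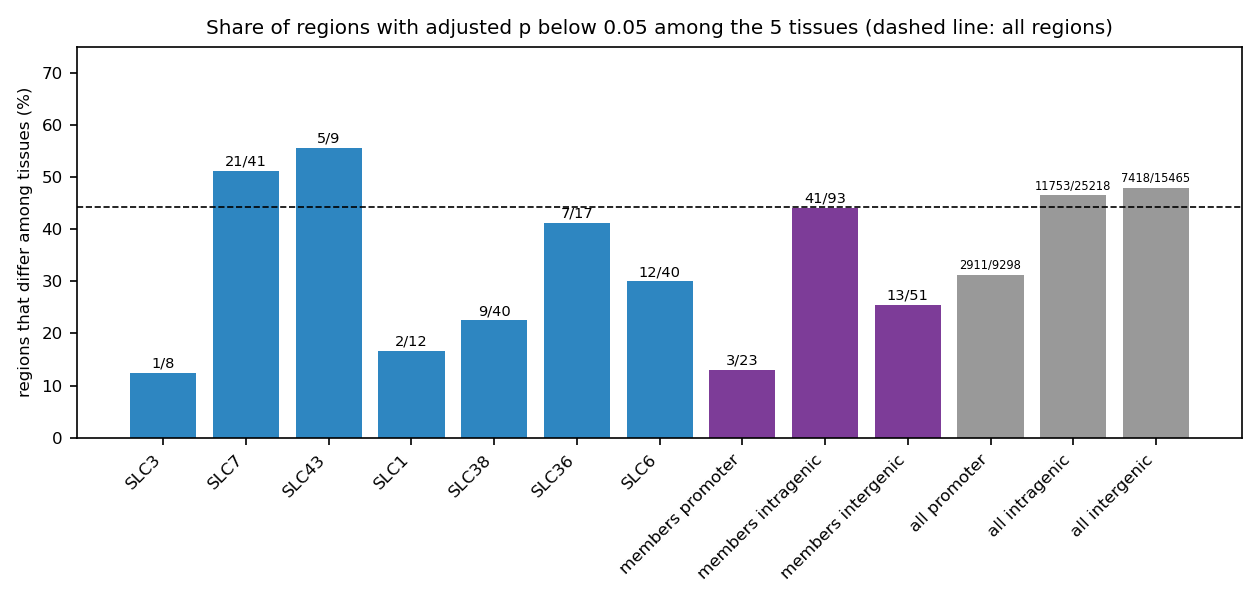
Percentage of regions that differed among the 5 tissues (adjusted p below 0.05), for each transporter family (blue), for member promoters, intragenic, and intergenic regions (purple), and for all regions of those classes (grey), with called and tested numbers above each bar. SLC43 (5 of 9) and SLC7 (21 of 41) lay above the dashed line of 44.2% for all regions, and member promoters (3 of 23) lay lowest after SLC3 (1 of 8).

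By family, 21 of 41 regions of SLC7 (51.2%) and 5 of 9 of SLC43 (55.6%) differed among tissues, against 44.2% of all regions. Their median ranges were 1.06 and 1.20 on the log2 scale, against 0.92 for all regions. SLC36 followed with 7 of 17 regions, SLC6 with 12 of 40, and SLC38 with 9 of 40, at median ranges of 0.81, 0.82, and 0.71. SLC1 had 2 of 12 and SLC3 had 1 of 8 regions that differed, with medians of 0.68 and 0.72. Within SLC7, the cationic transporters had 10 of 16 regions called, 8 of them in *Slc7a1* alone, and the light chains had 10 of 22. The families were not tested against each other.

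When the counts of all regions of a gene were summed, 18 of 51 genes (35.3%) differed among tissues, against 34.2% of all 16806 genes tested. They were *Slc1a7*, *Slc3a1*, *Slc6a18*, *Slc7a1*, *Slc7a3*, *Slc7a6*, *Slc7a8*, *Slc7a11*, *Slc7a14*, *Slc7a15*, *Slc36a3os*, *Slc36a4*, *Slc38a2*, *Slc38a8*, *Slc38a11*, *Slc43a1*, *Slc43a2*, and *Slc43a3*. The largest range was that of *Slc6a18*, at 3.49 on the log2 scale, with 42.3 and 40.9 summed CPM in pancreas and 2.82 and 4.66 in BM. *Slc3a2*, *Slc7a5*, *Slc1a5*, *Slc1a4*, *Slc38a1*, *Slc38a9*, and *Slc6a6* did not pass, with adjusted p between 0.111 and 0.789. Without lung 2 the number of genes was 10.

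**Figure D2:**
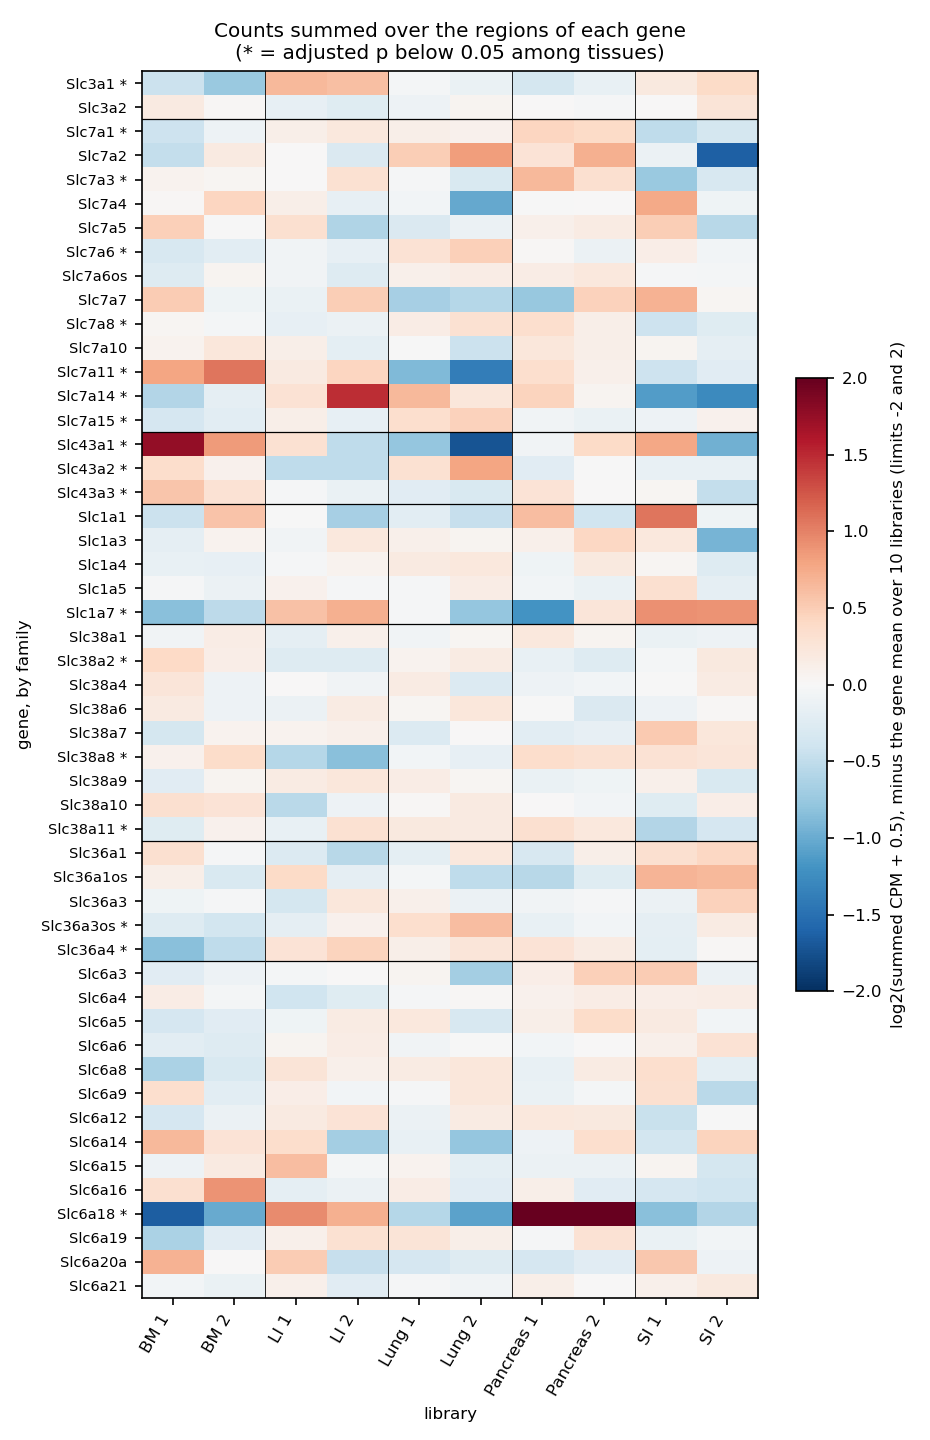
Counts summed over the regions of each of the 51 genes (rows, grouped by family) in each of the 10 libraries (columns), as log2(summed CPM + 0.5) minus the mean of the gene, with stars at the 18 genes that differed among tissues. *Slc6a18* was high in both pancreas libraries, *Slc7a11* and *Slc43a1* in both BM libraries, and most rows without a star stayed near white.

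Against the mean of the other 4 tissues, BM had the most member regions called. In BM 27 member regions were higher (16.2%, against 14.9% of all regions) and 17 were lower (10.2%, against 17.0%). Lung had 15 higher (against 6.53% of all regions) and 11 lower (against 7.03%). SI had 10 higher (against 11.8%) and 15 lower (against 10.2%). LI had 7 higher (against 8.80%) and 5 lower (against 1.27%), and pancreas had 7 higher (against 8.27%) and 0 lower (against 2.11%) in edgeR, where 6 were lower at an unadjusted p below 0.05, and 2 in DESeq2. Several of these counts rested on single libraries. Without BM 1, 15 regions were higher and 8 lower in BM, and without BM 2, 14 were higher and 10 lower. Without lung 2, 1 was higher and 1 lower in lung, and without lung 1, 8 were higher and 7 lower. The lung-lower count was also 5 without BM 1, 7 without BM 2, 6 without LI 1, and 6 without pancreas 2. Without either LI library 3 were higher in LI, and without LI 1, 2 were lower, whereas without SI 1, 12 were higher and 10 lower in LI, and without SI 2, 11 were higher. Without lung 2, 3 were lower in LI. Without pancreas 1, 4 were higher and 1 lower in pancreas, without SI 1, 2 were lower there, and without SI 1, 6 were higher in SI. The split also moved with the scaling and the tool: when TMM factors were left out and only library size was used, 19 were higher and 21 lower in BM, 18 higher and 9 lower in SI, and 6 higher and 2 lower in pancreas. In DESeq2, 7 were higher and 9 lower in LI, and 15 higher and 16 lower in lung.

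A stricter rule asked that a tissue exceed, or fall below, every other tissue when compared one by one, at an unadjusted p below 0.05 in each comparison. It found 15 member regions higher in a tissue (8.98%, against 11.3% of all regions) and 12 lower (7.19%, against 12.7%). BM had 9 of the 15 higher and 6 of the 12 lower regions, SI had 3 and 4, lung had 2 and 1, pancreas had 1 and 0, and LI had 0 and 1. BM also led among all regions, with 2249 of the 5667 higher and 3316 of the 6324 lower ones. There SI had 1401 and 1794, lung 652 and 862, pancreas 715 and 286, and LI 650 and 66. Without pancreas 1, 9 regions were higher, and without SI 1, 19 were lower.

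**Figure D3:**
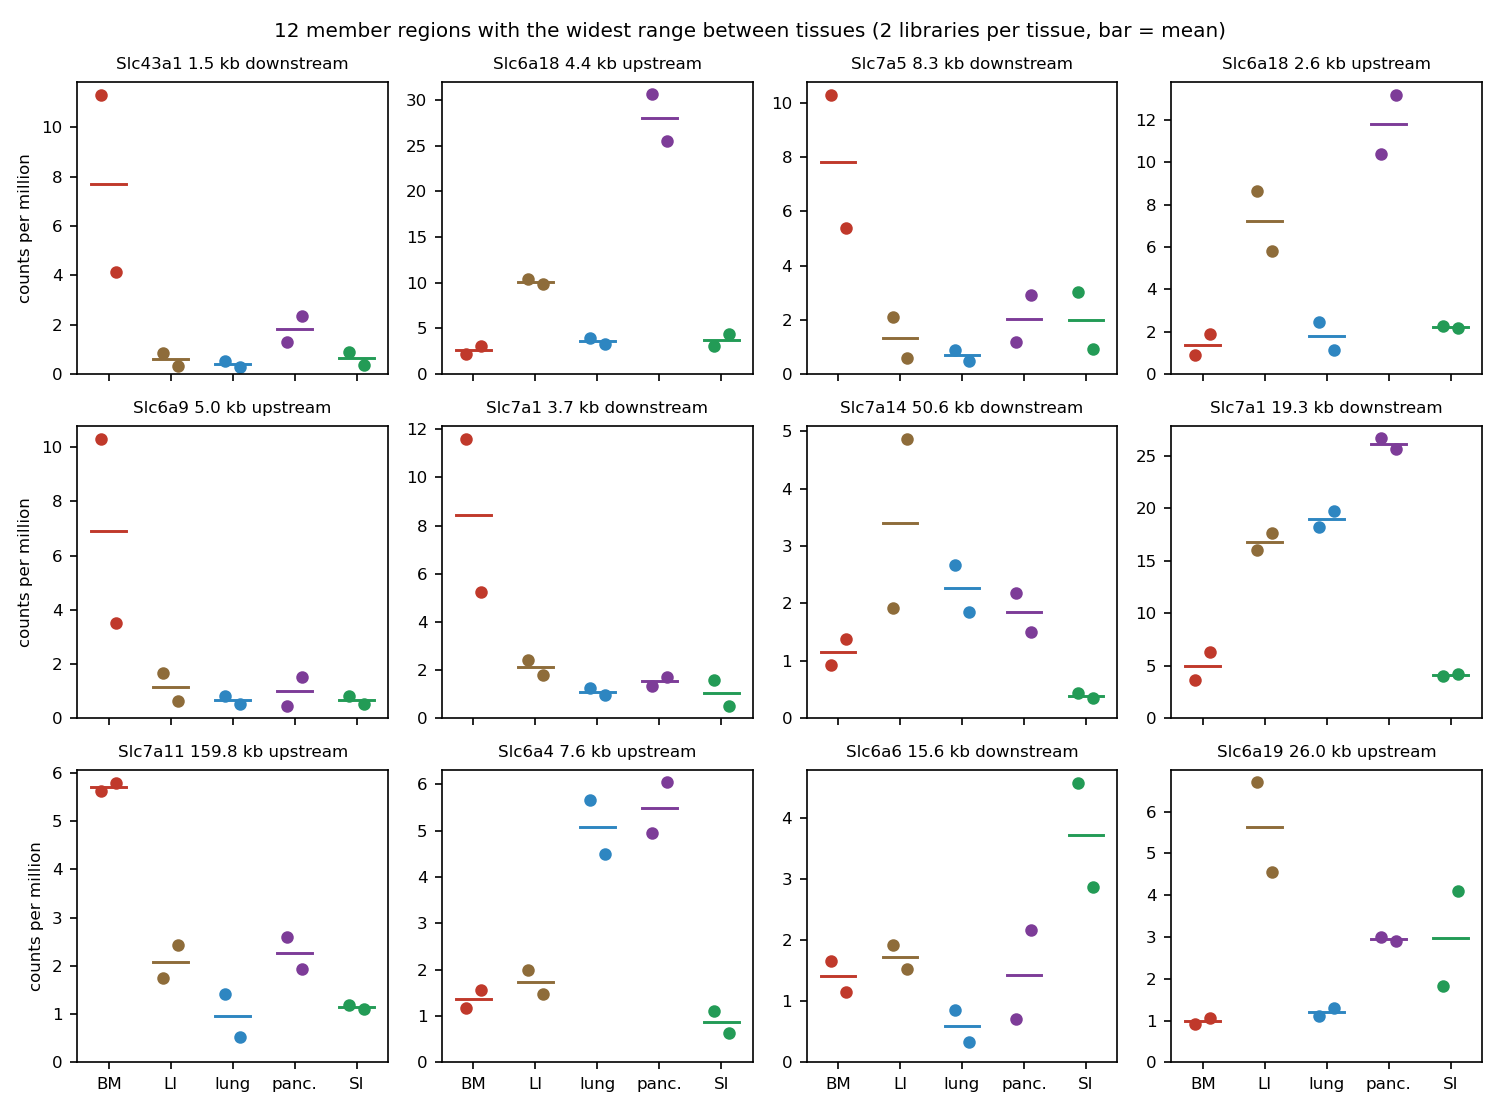
CPM of each library (dots) and tissue means (bars) for the 12 member regions with the largest range between tissue means among those that differed (adjusted p below 0.05), with at most 2 regions per gene. The *Slc6a18* region at 4.39 kb reached 30.6 and 25.5 CPM in pancreas, and in the BM-high regions of *Slc43a1*, *Slc7a5*, *Slc6a9*, and *Slc7a1* BM 1 lay well above BM 2.

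The heavy chains came first in the order of roles, since the light chains need them to reach the membrane. The region at the TSS of *Slc3a2*, which encodes CD98 (chr19:8722957-8723493), read 95.9 and 82.9 CPM in BM, 62.8 and 62.2 in lung, 55.4 and 47.1 in LI, 46.7 and 92.6 in SI, and 57.6 and 59.6 in pancreas. SI 2 lay as high as the BM libraries while SI 1 was the lowest of all, and a difference among the 5 tissues missed the threshold (adjusted p = 0.0814). In the single contrast of BM against the mean of the other tissues it was 0.57 ± 0.19 (SE) higher on the log2 scale (adjusted p = 0.0266), and this contrast no longer passed without BM 1 (adjusted p = 0.253) or without BM 2 (adjusted p = 0.0785). The call among tissues was made without SI 1 (adjusted p = 0.00224) and without SI 2 (adjusted p = 0.00233), in DESeq2 (adjusted p = 0.0338), and with library size alone (adjusted p = 0.0479). None of the 6 *Slc3a2* regions passed the threshold among tissues with all libraries. The only called region of this family was assigned to *Slc3a1*, the heavy chain of the cystine carrier of kidney, and lay 9.31 kb upstream inside an intron of *Ppm1b*, with 7.5 and 6.30 CPM in LI and 1.43 to 4.56 CPM in the other tissues (adjusted p = 0.00213).

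Among the light chains, *Slc7a5* (LAT1) carried a BM-high region. The region lay in an intron 8.28 kb downstream of the TSS (chr8:121899159-121899659) and read 10.3 and 5.38 CPM in BM, 0.902 and 0.497 in lung, 2.09 and 0.608 in LI, 3.03 and 0.941 in SI, and 1.18 and 2.91 in pancreas. Both BM libraries lay above the other 8, and BM was 2.54 ± 0.42 (SE) higher than the mean of the other tissues on the log2 scale (adjusted p = 3.2e-04). Without BM 1 the difference was 1.99 (adjusted p = 0.0436), and the call among tissues was lost (adjusted p = 0.0687). The region nearest the TSS, at 1.02 kb, read 6.86 to 14.6 CPM over the 10 libraries and did not pass the threshold (adjusted p = 0.212), nor did the region at 9.12 kb (adjusted p = 0.355).

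*Slc7a8* (LAT2) had 3 of 6 regions called, all of them in introns, with SI 1 or SI 2 the lowest library at each. The region at 29.9 kb (chr14:54751748-54752261) read 13.7 and 11.2 CPM in BM, 13.4 and 15.6 in lung, 4.71 and 4.65 in LI, 2.46 and 7.73 in SI, and 9.07 and 7.12 in pancreas. Lung was 1.49 ± 0.37 (SE) higher than SI on the log2 scale (adjusted p = 0.00786), and the BM and lung libraries lay above all others. The promoter of *Slc7a8* read 9.85 to 15.4 CPM, and no difference was detected (adjusted p = 0.585). The TSS region of *Slc7a6* (y+LAT2), at 22.2 to 36.6 CPM, was highest in lung with 32.1 and 36.6 CPM, 0.48 ± 0.15 (SE) higher than the mean of the other tissues (adjusted p = 0.0395), although the test among the 5 tissues missed the threshold (adjusted p = 0.0858), which it passed with library size alone (adjusted p = 0.0145) and without SI 2 (adjusted p = 0.0482). The promoter of *Slc7a7* (y+LAT1) read 7.39 and 4.97 CPM in BM, 2.67 and 2.46 in lung, 1.92 and 1.78 in LI, 5.87 and 2.54 in SI, and 2.00 and 3.34 in pancreas (adjusted p = 0.0187). SI 1 lay between the BM libraries there. *Slc7a15* had a region at 17.9 kb that was higher in lung (52.1 and 59.8 CPM) than in each other tissue (27.3 to 40.0 CPM, adjusted p = 0.00446), a call lost without lung 2 (adjusted p = 0.0920). An intronic region of *Slc7a6*, nearest to the start of *Slc7a6os* at 19.1 kb, was lower in SI (5.01 and 5.43 CPM) than in each other tissue (6.69 to 12.6 CPM, adjusted p = 0.0132), and also lost its call without lung 2 (adjusted p = 0.0595).

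The cystine carrier *Slc7a11* had 2 regions, both far upstream and both called. The nearer, at 160 kb (chr3:50603161-50603661), read 5.63 and 5.80 CPM in BM, 1.41 and 0.524 in lung, 1.74 and 2.43 in LI, 1.20 and 1.11 in SI, and 2.59 and 1.94 in pancreas. BM lay above all other libraries and was 1.91 ± 0.32 (SE) higher than the mean of the other tissues on the log2 scale (adjusted p = 3.8e-04), with 1.93 without BM 1 and 1.89 without BM 2. The region at 185 kb (chr3:50628222-50628809) read 8.96 and 11.4 CPM in BM and 2.39 and 1.99 in lung, with LI, pancreas, and SI between 4.24 and 7.30. Lung was lower than each other tissue, and 1.63 ± 0.25 (SE) below the mean of the other 4 (log2 fold change -1.63, adjusted p = 5.4e-04). The next gene, *Noct*, started 621 and 596 kb away. Whether these regions act on *Slc7a11* was not tested.

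The SLC43 carriers LAT3 and LAT4 move large neutral amino acids without a heavy chain or sodium. The *Slc43a1* (LAT3) region in an intron at 1.52 kb (chr2:84841897-84842397) had the widest range of all called members, 3.83 on the log2 scale. It read 11.3 and 4.14 CPM in BM, 0.549 and 0.276 in lung, 0.872 and 0.348 in LI, 0.915 and 0.383 in SI, and 1.30 and 2.37 in pancreas. BM was 3.43 ± 0.40 (SE) higher than the mean of the other tissues (adjusted p = 1.5e-05), and 2.53 higher without BM 1 (adjusted p = 0.0125). The promoter of *Slc43a1* was low, at 0.718 to 7.03 CPM, and did not pass the threshold (adjusted p = 0.0506), but it passed in DESeq2 (adjusted p = 0.0198), with the replicate number as a block (adjusted p = 0.0110), with size factors or library size in place of TMM, and without lung 1, SI 1, or SI 2 (adjusted p from 0.00237 to 0.0405).

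*Slc43a2* (LAT4) had 3 of 5 regions called, and a pair of neighbouring intronic regions shared a pattern. The region at 6.94 kb (chr11:75538769-75539338) read 47.6 and 54.7 CPM in BM, 51.0 and 66.9 in lung, 16.9 and 16.8 in LI, 17.9 and 28.3 in SI, and 29.9 and 31.5 in pancreas. Lung and BM lay above all other libraries and the intestinal libraries lay lowest, with LI lower than lung by 1.81 ± 0.23 (SE) on the log2 scale (adjusted p = 1.9e-04). The region at 5.98 kb read 33.7 and 28.9 CPM in BM, 34.9 and 48.1 in lung, and 12.2 to 21.1 in LI, pancreas, and SI (adjusted p = 1.7e-04). The third, at 1.69 kb, was higher in lung (11 and 19.3 CPM) than in each other tissue (5.06 to 9.49 CPM), and its call among tissues was lost without lung 2 (adjusted p = 0.259). The promoter of *Slc43a2* read 24.3 to 51.8 CPM and passed only with library size alone (adjusted p = 0.209, and 0.0441 with library size alone). For *Slc43a3*, the intronic region at 2.00 kb read 37.2 and 29.7 CPM in BM and 15.7 to 28 elsewhere (adjusted p = 0.0113).

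The arginine and lysine carrier *Slc7a1* (CAT1) had 12 regions, of which 8 differed among tissues, in several patterns. The most variable, in an intron at 19.3 kb, read 3.62 and 6.30 CPM in BM, 18.2 and 19.7 in lung, 16.0 and 17.6 in LI, 4.04 and 4.18 in SI, and 26.7 and 25.6 in pancreas. BM and SI lay far below the other 3 tissues, which did not overlap with each other, and pancreas was 2.67 ± 0.27 (SE) higher than SI on the log2 scale (adjusted p = 5.9e-06). The region at 15.1 kb was also highest in pancreas, with 16.1 and 15.0 CPM against 3.67 and 4.83 in BM (adjusted p = 7.5e-04 among tissues). The region at 20.6 kb was low in BM and SI, with 3.27 to 5.06 CPM against 6.28 to 10.4 CPM in the other tissues (adjusted p = 0.00227). The region at 6.61 kb had another order, with 4.72 and 4.91 CPM in SI, 3.49 and 4.30 in LI, and 1.37 to 2.64 elsewhere (adjusted p = 0.00956).

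A further *Slc7a1* region, in an intron at 3.67 kb (chr5:148388900-148389400), ran opposite to these in BM. It read 11.6 and 5.25 CPM in BM, 1.25 and 0.966 in lung, 2.44 and 1.78 in LI, 1.59 and 0.523 in SI, and 1.35 and 1.73 in pancreas. BM was 2.61 ± 0.34 (SE) higher than the mean of the other tissues (adjusted p = 4.1e-05), and 1.92 higher without BM 1 (adjusted p = 0.0188). *Slc7a1* was thus among 2 genes with a region higher and another lower in BM. At the TSS, 0.218 kb from it, the gene read 95.7 to 180 CPM, and a difference among tissues missed the threshold (adjusted p = 0.0753) but passed in DESeq2 (adjusted p = 0.0286), after removal of a GC trend (adjusted p = 0.0218), and without SI 2 (adjusted p = 0.0459). SI alone was below the mean of the others, at a log2 fold change of -0.47 ± 0.16 (SE, adjusted p = 0.0387). Summed over its 12 regions, *Slc7a1* read 342 and 332 CPM in pancreas, 179 and 199 in SI, and 191 and 238 in BM (adjusted p = 0.00223).

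**Figure D4:**
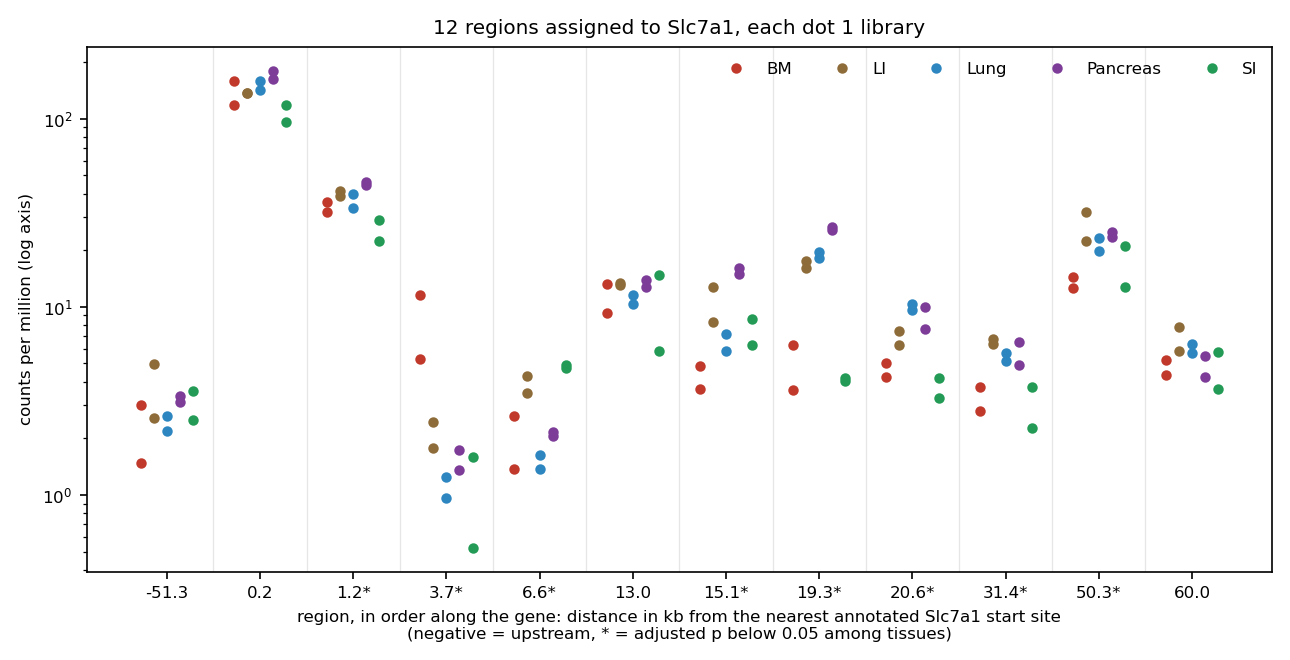
CPM (log axis) of the 12 regions assigned to *Slc7a1* in each library, in order along the gene and labelled by the distance in kb from the nearest annotated start site, with stars at the 8 that differed among tissues. BM and SI dots lay lowest at 19.3 kb, BM dots lay highest at 3.7 kb, and the region at 0.2 kb had the highest values in all tissues.

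The other cationic carriers had 1 region each. The *Slc7a14* region, in an intron at 50.6 kb, read 0.433 and 0.348 CPM in SI and 0.930 to 4.87 CPM elsewhere, lower in SI than in each other tissue (adjusted p = 0.00406 among tissues). The *Slc7a3* region lay 43.4 kb upstream, inside *Snx12*, and read 7.70 and 10.7 CPM in SI against 20.3 and 15.6 in pancreas (adjusted p = 0.0361). The regions of *Slc7a2* and *Slc7a4* were not called.

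The glutamine and small neutral amino acid carriers of SLC1 varied little. The promoter of *Slc1a5* (ASCT2), the main glutamine carrier of activated lymphocytes, read 19.1 to 27.9 CPM (adjusted p = 0.513), and that of *Slc1a4* (ASCT1) read 61.0 to 82.0 CPM (adjusted p = 0.651). The range between tissue means was 0.30 and 0.28 on the log2 scale. An intronic *Slc1a5* region at 13.6 kb was called (adjusted p = 0.0328), at 4.19 and 2.44 CPM in SI and 0.881 and 1.15 in BM. This call was lost without either BM library, either lung library, pancreas 2, or SI 1. The other called region of the family lay in an intron of the glutamate carrier *Slc1a7* at 20.7 kb, with 9.53 and 8.46 CPM in SI, 6.63 and 7.08 in LI, and 1.77 to 4.55 elsewhere (adjusted p = 0.00153).

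Among the SLC38 carriers, the sodium-coupled glutamine importers *Slc38a1* (SNAT1) and *Slc38a2* (SNAT2) lie next to each other on chromosome 15. The promoter of *Slc38a1* read 22.3 to 39.3 CPM (adjusted p = 0.111) and that of *Slc38a2* 21.2 to 43.0 CPM (adjusted p = 0.137). At the *Slc38a1* promoter both BM libraries (35.6 and 39.3 CPM) lay above all others. In the single contrast of BM against the mean of the other tissues it was 0.48 ± 0.16 (SE) higher on the log2 scale (adjusted p = 0.0284). The difference was 0.55 without BM 1 and 0.40 without BM 2. Of the 14 *Slc38a1* regions 2 were called. The one 8.06 kb upstream (chr15:96650721-96651221) read 5.87 and 8.47 CPM in BM, 7.89 and 6.58 in pancreas, and 1.46 to 2.74 in LI, lung, and SI. BM and pancreas did not overlap with the other tissues, and pancreas was 2.01 ± 0.38 (SE) higher than SI on the log2 scale (adjusted p = 0.00127).

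*Slc38a2* had 3 of 8 regions called, all upstream of the gene. The region at 10.2 kb was among the strongest of the members, with 124 and 105 CPM in BM, 95.3 and 97.5 in lung, 55.6 and 58.4 in LI, 61.9 and 100 in SI, and 73.1 and 71.7 in pancreas (adjusted p = 0.00836). The SI libraries differed from each other by more than most tissues did. The region at 67.6 kb read 8.61 and 6.63 CPM in BM, 2.86 and 2.43 in lung, 5.84 and 7.43 in LI, 1.93 and 2.72 in SI, and 3.42 and 7.12 in pancreas (adjusted p = 0.00269). LI 2 and pancreas 2 lay between the BM libraries there. The region at 45.3 kb was higher in SI (5.92 and 2.82 CPM) than in each other tissue (0.707 to 2.37 CPM), and its call was lost without SI 1 (adjusted p = 0.538), without lung 2, and without either BM library.

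The promoter of the lysosomal arginine sensor *Slc38a9* read 30.5 to 41.7 CPM over the 10 libraries, and no difference among tissues was detected (adjusted p = 0.575). Its intronic region at 13.5 kb read 4.99 and 4.14 CPM in BM and 1.53 to 2.90 elsewhere, 1.09 ± 0.30 (SE) higher in BM than the mean of the other tissues (adjusted p = 0.0125), although the test among the 5 tissues missed the threshold (adjusted p = 0.0767), which it passed after removal of a GC trend (adjusted p = 0.0200). The *Slc38a7* region at 0.927 kb, at the gene of another lysosomal glutamine carrier, read 13.2 and 9.72 CPM in SI, 9.41 and 8.17 in LI, 5.89 and 7.33 in pancreas, and 3.18 to 4.14 in BM and lung (adjusted p = 4.2e-04). Both intestinal tissues lay above the other 3. The region 4.27 kb upstream of *Slc38a8* was the single member lower in LI than in each other tissue, with 11.2 and 9.73 CPM against 17.4 to 29.9 CPM (adjusted p = 4.9e-04). A *Slc38a11* intronic region at 21.7 kb was lower in SI (21.9 and 28.6 CPM) than in each other tissue by the unadjusted rule, but the test among tissues missed the threshold (adjusted p = 0.0757), which it passed in DESeq2 (adjusted p = 0.0471), after removal of a GC trend (adjusted p = 0.0437), and without SI 2 (adjusted p = 0.0455).

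Of the 17 regions of the proton-coupled SLC36 family, 4 were lower in BM (17.0% of all regions were), 3 of them at *Slc36a4*. Higher in lung were 3 (6.53% of all regions were), all at the opposite-strand gene *Slc36a3os*. At *Slc36a4* (PAT4), the promoter region centred 0.672 kb upstream of the TSS (chr9:15708798-15709335) read 5.14 and 5.80 CPM in BM, 11.8 and 13.0 in lung, 18.7 and 18.9 in LI, 9.0 and 13.1 in SI, and 14.3 and 13.8 in pancreas. BM lay below all other libraries and LI above them, with a log2 difference of 1.78 ± 0.25 (SE) between LI and BM (adjusted p = 9.7e-05). The intronic region at 5.25 kb was also lower in BM, with 0.685 and 0.368 CPM against 2.04 to 3.69 CPM elsewhere (adjusted p = 0.00773), and its call was lost without BM 2 (adjusted p = 0.11). The region at 0.172 kb, over the TSS, read 15.2 and 17.2 CPM in BM and 21.6 to 27.9 CPM elsewhere (adjusted p = 0.0766), and passed after removal of a GC trend (adjusted p = 0.0114) and without SI 1 or SI 2 (adjusted p = 0.0474 and 0.0435). Summed over 5 regions, *Slc36a4* was lower in BM at a log2 fold change of -0.85 ± 0.14 (SE, adjusted p = 3.7e-04).

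*Slc36a1* (PAT1) read 18.3 and 21.7 CPM in SI and 11.8 and 9.08 in LI at its TSS (adjusted p = 0.0364), and this call was lost without BM 1, without either LI library, without pancreas 1, and after removal of a GC trend. The neighbouring *Slc36a1os* region at 0.107 kb was higher in SI (10.7 and 10.7 CPM) than in each other tissue (4.12 to 8.37 CPM, adjusted p = 0.0259), and lost its call without lung 2 and without either library of pancreas or SI. Of the *Slc36a3os* regions 3 of 5 differed. Its promoter, inside *Slc36a3*, read 21.6 and 28.5 CPM in LI and 43.0 and 54.7 in lung (adjusted p = 0.00845). The region 5.38 kb upstream was lower in BM (16.1 and 11.3 CPM) than in each other tissue (21.6 to 42.0 CPM, adjusted p = 4.9e-04).

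SLC6 holds sodium- and chloride-coupled carriers of neutral amino acids, taurine, and neurotransmitters. The member with the smallest p was assigned to *Slc6a18* (B0AT3), a carrier of neutral amino acids known from kidney, and lay in an intron of its neighbour *Slc6a19* (B0AT1), whose TSS was 10.2 kb away. This region, 4.39 kb upstream of *Slc6a18* (chr13:73682126-73682708), read 2.2 and 3.08 CPM in BM, 4.0 and 3.28 in lung, 10.4 and 9.86 in LI, 3.03 and 4.39 in SI, and 30.6 and 25.5 in pancreas. Pancreas lay above all other libraries and LI above the remaining ones. Pancreas was 2.68 ± 0.19 (SE) higher than the mean of the other tissues on the log2 scale (adjusted p = 7.9e-07), and this was the single member higher in pancreas than in each other tissue.

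The second *Slc6a18* region, 2.65 kb upstream in the 3′ untranslated part of *Slc6a19*, had the same order, with 10.4 and 13.2 CPM in pancreas, 8.63 and 5.82 in LI, and 0.881 to 2.47 elsewhere (adjusted p = 4.5e-05). A region 26.0 kb upstream of *Slc6a19* was highest in LI, with 6.71 and 4.56 CPM against 0.930 and 1.06 in BM (adjusted p = 0.00148). The acinar marker list, whose 5 genes all had regions, summed to 298 and 294 CPM in pancreas and to 232 to 394 CPM in the other tissues, of which *Prss2* made up 175 to 345 CPM. *Cpb1* read 7.60 and 13.9 CPM in pancreas and 3.92 to 11.3 elsewhere, and *Cpa1* read 6.01 and 7.23 CPM in pancreas and 1.13 to 25.3 elsewhere. *Cela1* read 31.8 and 25.8 CPM in pancreas and 29.8 to 54.9 elsewhere, and *Ptf1a* read 5.83 and 4.31 CPM in pancreas and 3.87 to 10.0 elsewhere. The part of such cells in the pancreas-high regions was not tested.

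For the taurine carrier *Slc6a6* (TauT), 4 of 10 regions differed while its promoter, at 22.4 to 39.8 CPM, did not (adjusted p = 0.400). The intronic region at 22.1 kb (chr6:91705797-91706551) was higher in SI than in each other tissue, with 20.0 and 18.5 CPM in SI, 13.1 and 10.8 in LI, 8.6 and 12.1 in pancreas, 7.49 and 9.53 in BM, and 6.59 and 6.16 in lung. SI was 1.09 ± 0.18 (SE) above the mean of the others on the log2 scale (adjusted p = 4.6e-04). The intronic region at 15.6 kb read 4.57 and 2.86 CPM in SI and 0.331 to 2.16 elsewhere (adjusted p = 0.0167), and lost its call without SI 1 or lung 2. The region 40.7 kb upstream was lower in BM, with 2.25 and 2.58 CPM against 6.98 to 12.3 CPM (adjusted p = 4.0e-04). The part of the SI-high B cell list in the regions higher in SI was not tested.

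The other SLC6 regions followed tissue in single places. Near the serotonin carrier *Slc6a4*, a region 7.58 kb upstream read 5.65 and 4.50 CPM in lung and 4.95 and 6.04 in pancreas, against 0.627 to 2.00 CPM in BM, LI, and SI (adjusted p = 2.1e-04). A second, 14.9 kb upstream in an intron of *Blmh*, was higher in BM, with 4.55 and 3.59 CPM against 0.521 to 1.51 CPM (adjusted p = 0.00214). A *Slc6a12* region, at the gene of a betaine and GABA carrier, was lower in BM (1.17 and 0.828 CPM) than in each other tissue (2.47 to 7.63 CPM, adjusted p = 0.00162). The region 4.97 kb upstream of the glycine carrier *Slc6a9* (chr4:117830034-117830534) read 10.3 and 3.5 CPM in BM and 0.471 to 1.66 CPM elsewhere. BM was 3.07 ± 0.42 (SE) higher than the mean of the other tissues (adjusted p = 5.7e-05). Without BM 1 the difference was 2.09 (adjusted p = 0.0386), and the call among tissues was lost (adjusted p = 0.101).

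In 4 of the 27 BM-higher member regions, BM 1 read at least 1.5 times BM 2, a threshold chosen after the values were seen. These were the regions of *Slc6a9* (ratio 2.94), *Slc43a1* (2.72), *Slc7a1* at 3.67 kb (2.22), and *Slc7a5* (1.92), and they were also the BM-high members with the largest differences from the other tissues. The share, 14.8%, was near that of all 7427 BM-higher regions, 18%, whose median ratio was 1.11. The 3 erythroid genes moved the same way, with a ratio of 1.65 and none of them at 0. *Klf1*, which encodes a transcription factor of red cell precursors, read 42.8 and 26.6 CPM in BM against 18.8 to 29.0 elsewhere, *Epor* 19.0 and 10.8 against 6.21 to 14, and *Hbb-bt* 13.8 and 8.51 against 0.697 to 9.13, so that BM 2 overlapped with other tissues at each of them. The part of such cells in the BM-high regions was not tested. In 11 of the 27 regions BM 1 was below BM 2, among them the *Slc38a1* regions 8.06 and 12 kb upstream, *Slc43a2* at 6.94 kb, and both *Slc7a11* regions.

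**Figure D5:**
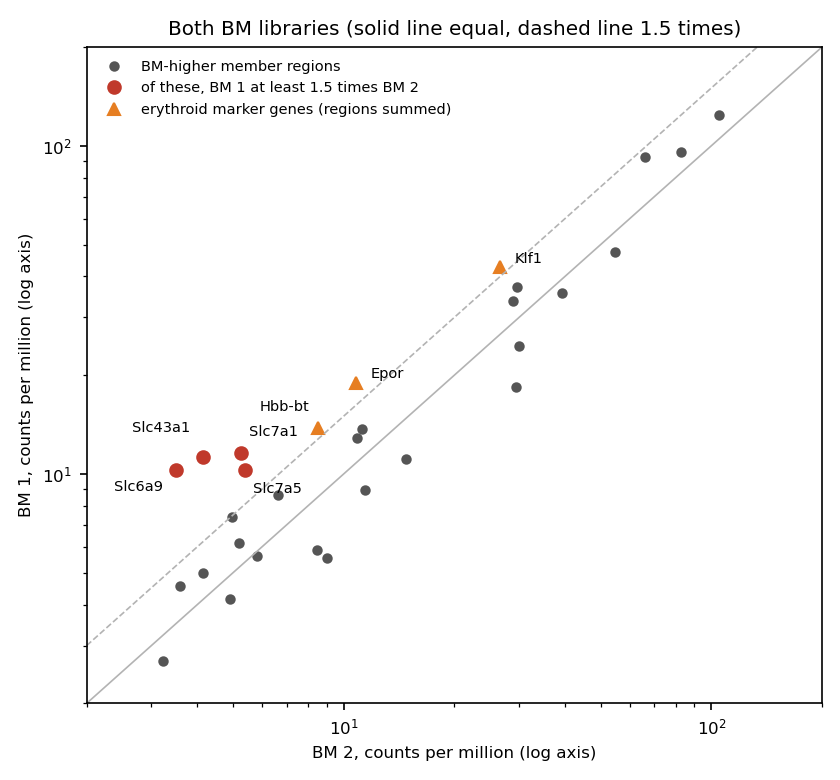
CPM in BM 1 against BM 2 (log axes) for the 27 member regions higher in BM (grey, red where BM 1 was at least 1.5 times BM 2) and for the 3 erythroid genes with their regions summed (orange triangles). The red regions of *Slc6a9*, *Slc43a1*, *Slc7a1*, and *Slc7a5* lay above the dashed line of 1.5 times, as did the triangles, and the other 23 lay around or below it.

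The central 300 bases of the members held the GATA letters AGATAA (or TTATCT) in 39 of 167 regions (23.4%), against 17.2% of all 50039 regions and 11.2% of RefSeq promoters. Among the 57 members that differed among tissues it was 24 (42.1%), against 22.3% of all regions that differed. By direction, 15 of the 27 BM-higher members (55.6%) held it, against 22.8% of all BM-higher regions, and 8 of the 15 SI-lower members, against 31.1% of all SI-lower regions. None of the 7 pancreas-higher and 10 SI-higher members held it, against 27.8% and 16.3% of all regions higher in those tissues. The other sets lay closer to all regions. It was 11.8% of BM-lower members (18.9% of all such regions), 28.6% of LI-higher (20.6%), and 20.0% of LI-lower ones (23.6%). In lung it was 33.3% of the higher (24.5%) and 36.4% of the lower members (26.3%). The 4 members in which BM 1 read at least 1.5 times BM 2 all held the GATA letters. That threshold was chosen after the values were seen, and the share in all BM-higher regions that reached it was not computed. For the ROR letters AGGTCA the shares were 21.6% of members and 18% of all regions, for the RUNX letters TGTGGT 23.4% and 29.1%, for the AP-1 letters TGANTCA 16.8% and 18.3%, and for the MYC-type letters CACGTG 7.78% and 6.74%. The letters TGATGNAA, part of the element through which ATF4 answers to a lack of amino acids, were in 12 of 167 members (7.19%) and 3.96% of all regions, and both *Slc7a11* regions held them. The AHR letters GCGTG were in 26.3% of members and 29.6% of all regions. These shares were not tested, and RefSeq promoters held the same letters in 11.2% (GATA), 16.3% (ROR), 16.8% (RUNX), 7.81% (AP-1), 7.15% (MYC-type), 3.97% (ATF4), and 32.4% (AHR) of 300-base windows.

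The genes that sense or use amino acids, taken from lists chosen by function, had regions called at shares from 25.9% to 51.4%. Of the regions of 25 genes that link amino acids to mTORC1, 37 of 83 differed among tissues (44.6%), against 44.2% of all regions. *Rptor*, which encodes the raptor subunit, had 7 of 7 regions called and read 148 and 136 summed CPM in pancreas, 121 and 116 in lung, and 60.6 to 83.1 in the other tissues (adjusted p = 6.9e-05). *Fnip2*, a partner of folliculin, read 137 and 133 CPM in LI and 68.9 to 118 elsewhere (adjusted p = 0.00142). Of the amino acid response genes 13 of 37 regions differed (35.1%), and *Ddit3* (CHOP) was highest in BM with 131 and 112 CPM against 54.7 to 90.2 (adjusted p = 4.7e-04).

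Of the regions of enzymes that use amino acids, 25 of 65 differed (38.5%), with 12 lower in BM (17.0% of all regions were), 12 lower in SI (10.2% of all), 9 higher in lung (6.53% of all), and 7 higher in pancreas (8.27% of all). *Arg1*, arginase-1, read 103 and 87.9 summed CPM in SI and 135 to 244 in the other tissues (adjusted p = 0.00122), and *Ass1*, which remakes arginine from citrulline, read 32.9 to 72.2 (adjusted p = 0.00699). SI was thus the lowest tissue for the summed regions of both *Slc7a1* and *Arg1*. It was also the lowest for the summed ILC2 markers, among them the gate gene *Il1rl1*. The part of these markers in the *Slc7a1* and *Arg1* differences was not tested. *Tph1*, which starts serotonin synthesis from tryptophan, read 33.7 and 38.1 CPM in lung and 10.8 to 27.0 elsewhere (adjusted p = 3.8e-04). Of the other amino acid carriers 18 of 35 regions differed (51.4%), among them 9 of 13 of the aromatic amino acid carrier *Slc16a10*, and of the MYC family 7 of 27 (25.9%).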

How the data were processed

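The deposited table held raw read counts of ATAC-seq regions in 10 libraries, which the authors made by mapping to mm10 with Bowtie2 (2.2.9; SAMtools 1.8, FastQC 0.11.9), keeping unique alignments, calling peaks with MACS2 (2.1.1), keeping those present in both duplicates, merging them with HOMER, and counting with bedtools. Whether PCR duplicates were removed is not given in the sources used here. Coordinates follow the deposited table, whose start base is not stated.

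Regions with at least 1 count were fitted with edgeR (4.0.16, R 4.3.3; glmQLFit and glmQLFTest) over all 5 tissues, with TMM factors and no covariate, and p-values were adjusted by the Benjamini-Hochberg method over all regions. Contrasts compared a tissue with the mean of the other 4. CPM values used TMM-scaled library sizes. DESeq2 (1.42.0) was an alternative. The procedure was tested on simulated counts, where it gave every changed region its right direction but the share of unchanged regions among those called was above the nominal rate, so that calls near the threshold are less certain than their adjusted p states. Each region was given to the nearest TSS of the curated RefSeq annotation (GRCm38.p6). Members and gene lists were chosen with earlier results of these data known. Named regions were the 12 widest called members (at most 2 per gene and at least 1 CPM on average), the region at the TSS and the region with the smallest p of a list of transporters that lymphocytes use or the study's mRNA lists name, and up to 3 regions per tissue and direction that differed from each other tissue. Further regions were chosen after their values were seen. With 10282987 to 32797872 counts per library, counting error was smallest in lung 2. Some items, marker genes among them, are not reported here.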

Additional observations from a re-analysis of the deposited data

How the results depend on the processing

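Of 95 counts of member regions or genes computed with other scalings, filters, or tools, 87 stayed within 1.5 times the reported count. With library size alone, which shifted the median region by -0.13 (LI and pancreas) to 0.18 (lung) on the log2 scale, 7 member promoters differed, 2 regions were lower in pancreas, and 18 were higher and 9 lower in SI. DESeq2 gave 9 lower in LI and 2 lower in pancreas. Removal of a GC trend, which shifted the median region in BM by 0.14, gave 1 lower in pancreas. The cause of these changes was not tested. A minimum of 10 counts in at least 2 libraries kept the same 49981 regions.

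Replicate numbers are only names in these labels, and same-numbered libraries did not deviate together (correlations of -0.218 to 0.196 between tissues), so the numbers do not show a pairing. With the replicate number as a block, 59 regions and 19 genes differed among tissues, 28 were higher and 16 lower in BM, and 1 was lower in pancreas.

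Leaving out each library in turn, with the lone library of that tissue assumed to vary like the others, gave 40 to 71 regions that differed among tissues, 2 to 5 promoters, 38 to 66 other regions, and 10 to 21 genes. The regions higher and lower were 14 to 31 and 8 to 24 in BM, 3 to 12 and 2 to 10 in LI, 1 to 17 and 1 to 15 in lung, 4 to 10 and 0 to 2 in pancreas, and 6 to 11 and 12 to 16 in SI. The regions that differed from each other tissue were 9 to 19 higher and 8 to 19 lower. For 46 named regions the contrast of the highest tissue of each with the mean of the other 4 was also followed, and no contrast of a lower tissue. Under all alternatives 0 of 736 values reversed. Because the tissue was picked as the highest in the same data, a reversal was unlikely from the start, and this count does not show that the directions are firm. Outside the leave-one-out fits, 262 of these contrasts kept their direction and side of the threshold, 8 no longer passed, and 6 newly passed. Calls among the 5 tissues come from a separate test and are not in these counts.

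With 2 libraries per tissue and a median of 60 to 204 counts per member region, small differences were not detectable.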
